A study of Mus musculus with 3 samples.

Results

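The NF-kB family and its inhibitors were followed as 10 genes, chosen by name from the 50686 genes of the count table and all found by gene identifier. They are the 5 subunits Rela, Relb, Rel, Nfkb1 and Nfkb2, the 3 cytoplasmic IkB inhibitors Nfkbia, Nfkbib and Nfkbie, the deubiquitinase gene Tnfaip3, and Bcl3, an atypical IkB protein of the nucleus. Poly(A) RNA was sequenced from 3 BCR::ABL1-transformed cell lines, called lines 1 to 3 here after their replicate numbers. All 3 lines carry the K43M allele (Cdk6 KM/KM), which leaves CDK6 in place without kinase activity, and they grew out of C57BL/6 mouse bone marrow after retroviral transfer of BCR::ABL1 p185, the fusion kinase of acute lymphoid leukemia, so the oncogene is driven by the retroviral vector and not by its own locus. Wild-type and knockout lines were not used here, and the comparison is therefore between the 3 kinase inactive lines, with no difference between genotypes.

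NF-kB is a set of dimeric transcription factors built from 5 related proteins. In resting cells IkB proteins hold the dimers in the cytoplasm. The IKK kinase complex marks IkB for destruction, and freed RELA or REL dimers enter the nucleus, which is called the canonical route. In the non-canonical route the kinase NIK drives processing of the Nfkb2 product, which then pairs with RELB. Genes of the inhibitors, among them Nfkbia, Nfkbie and Tnfaip3, are themselves known NF-kB targets, so the system carries its own brake. In B-lineage cells the route runs downstream of antigen receptor, Toll-like and TNF-family receptors, and CDK6 is known as a transcriptional cofactor of p65, the Rela product.

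The promoters of the members are shown first because they hold the letters that NF-kB dimers are known to prefer. RefSeq start sites on GRCm38.p6 gave 11 windows of 250 bases before a start for 8 of the 10 members. Relb and Nfkb1 had no entry. The NF-kB consensus, a pattern of 10 letters searched on both strands, was found in 7 of these 11 windows and in 5 of the 8 members, Rel, Nfkb2, Nfkbia, Nfkbie and Tnfaip3. Over all 32851 windows, 3.9% held it, and 4.46% of 27025 genes did so in at least 1 window. The windows of Rela, Nfkbib and Bcl3 held no match. A match is a description of the letters and not a bound site.

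The first match of each of the 5 members is printed on the strand of the gene, 5′ to 3′, with the matched letters in capitals. Where matches overlapped by all but 1 base (Rel and Nfkb2), the capitals cover both. The positions are chr11:23771042-23771070 (minus strand) for Rel, chr19:46304689-46304717 (plus) for Nfkb2, chr12:55492658-55492685 (minus) for Nfkbia, chr17:45555585-45555612 (plus) for Nfkbie and chr10:19015517-19015544 (minus) for Tnfaip3.
Rel: gtaagcagcGGGAAATCCCCccccctccc
Nfkb2: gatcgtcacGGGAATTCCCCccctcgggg
Nfkbia: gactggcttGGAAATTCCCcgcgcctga
Nfkbie: cagcaaacaGGGGGATTCCggaggggcg
Tnfaip3: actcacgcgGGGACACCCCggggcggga
The match began 92 bases before the start in Rel, 39 in Nfkb2, 29 in Nfkbia, 106 in Nfkbie and 125 in Tnfaip3. In Nfkb2 all 29 printed bases lay in an exon of another annotated transcript of the gene, and in the other 4 members none lay in an exon of the gene. Nfkb2 had a further match 11 bases before the same start, and Tnfaip3 one 12 bases before its start.

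The whole window of Nfkbia, the inhibitor with the largest range between lines, is given for context, from chr12:55492648-55492897 on the minus strand, with the matched letters again in capitals.
Nfkbia window: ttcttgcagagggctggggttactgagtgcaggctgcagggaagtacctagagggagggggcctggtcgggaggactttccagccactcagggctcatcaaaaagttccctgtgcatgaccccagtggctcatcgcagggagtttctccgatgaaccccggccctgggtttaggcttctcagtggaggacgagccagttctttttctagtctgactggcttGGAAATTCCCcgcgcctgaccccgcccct

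The libraries held 19633463 to 25773221 counts. Levels are given as CPM, counts scaled to a common library size by TMM normalization, and spreads as log2(CPM + 1). A gene at 0 may still be present at up to 3 counts, which is 0.118 to 0.152 CPM. Of the 13974 genes with 10 or more counts in all, 66.8% differed between the libraries beyond counting error (chi-square, adjusted p under 0.05), and in 26.5% the highest line exceeded the lowest more than 2-fold. These tests compare 3 libraries, each of its own cell line, and not conditions. The common biological coefficient of variation was 0.366, and 0.267 without line 3. All 12 B-lineage marker genes were detected, with summed levels of 3677, 4135 and 3835 CPM in lines 1, 2 and 3, and 9 of the 12 were highest in line 2. Of the marker genes of other cells, 7 of 9 for T and NK cells, 8 of 11 for myeloid cells, 4 of 6 for erythroid cells and megakaryocytes, and 6 of 7 for stroma and endothelium had fewer than 3 counts in every line, and Cd3e, Elane, Hba-a1 and Col1a1 were at 0. The remaining gene of the stromal and endothelial list, Pecam1, which B-cell precursors also express, measured 49.5, 80.3 and 99.7 CPM and was highest in line 3, as Relb, Nfkb2, Nfkbib and Bcl3 were, and its part in their differences was not tested. Cdk6 itself, the mutated gene, measured 449.6, 334.3 and 239.4 CPM, and these counts do not show the mutated base.

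Of the 10 members, 8 differed between the lines, against 66.8% of all genes kept and 80.1% of the 9390 genes with a mean of at least 5 CPM. Of the 9 members in that class of level, all but Bcl3, 7 differed. These shares are near the background. Relb and Bcl3 passed a 2-fold difference between highest and lowest line, 2 of 10 against a background of 26.5%. Among genes with a mean of at least 5 CPM that background was 10.4%, and of the 9 members in that class only Relb passed. Relb sat at that threshold (2.00-fold) and was not past it when counts were scaled by DESeq2 or by library size, which left 1 member. Without line 3, Bcl3 had too few counts to be tested, and of the other 9 members 5 differed and 0 passed 2-fold. The shares of all genes in that setting were 47.1% and 12.3%. Between pairs of lines, exact binomial tests with Benjamini-Hochberg adjustment called 5 members for line 2 against line 1 (42.9% of all genes), 7 for line 3 against line 1 (51.8%) and 7 for line 3 against line 2 (51.2%). In bulk RNA, fewer cells with a transcript and less of it per cell cannot be told apart, which holds for each difference below.

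**Figure D1:**
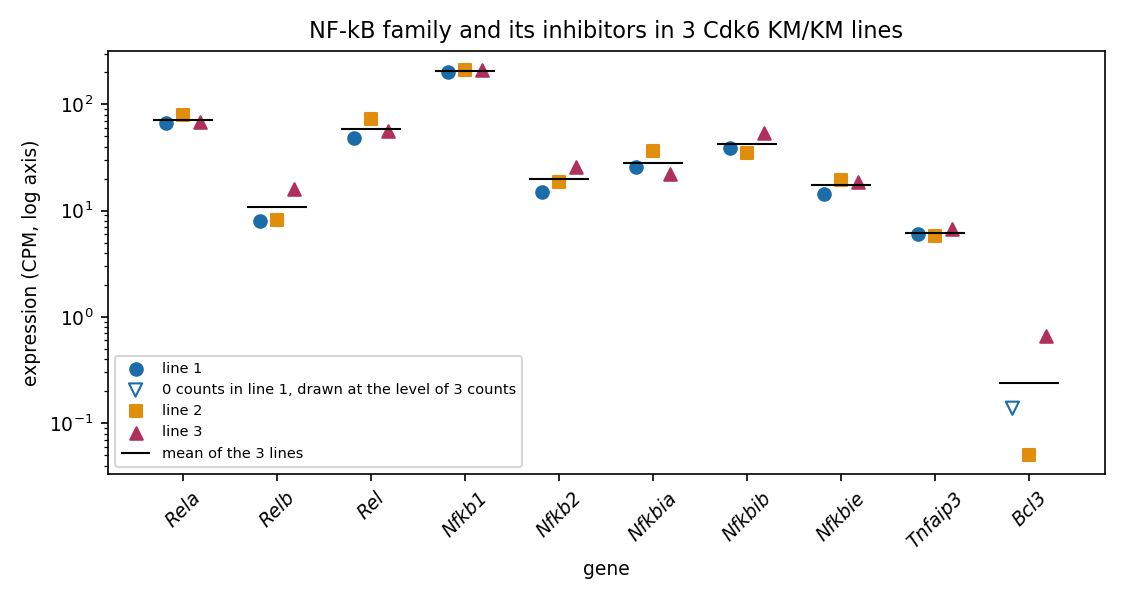
Expression of the 10 genes in the 3 Cdk6 KM/KM lines in CPM on a log axis, with 1 symbol per line and a bar at the mean; an open triangle stands for 0 counts, drawn at the level of 3 counts. Relb and Bcl3 stand higher in line 3 than in lines 1 and 2, Rel and Nfkbia stand highest in line 2, and the symbols of Nfkb1 and Tnfaip3 lie nearly level.

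Rela (ENSMUSG00000024927, chr19:5637483-5648130, plus strand) encodes p65, the main transactivating subunit of the canonical route. It measured 66.1, 78.9 and 68.3 CPM in lines 1, 2 and 3, a mean of 71.1 ± 6.84 (SD, n = 3). The 3 lines differed (chi-square with Benjamini-Hochberg adjustment, adjusted p = 2.98e-06). Line 2 was highest, 1.19-fold above line 1 (exact binomial, adjusted p = 6.53e-06), while lines 1 and 3 were not told apart (ratio 1.03, 95% interval 0.964 to 1.11). Without line 2 the adjusted p was 0.645.

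Rel (chr11:23736847-23770970, minus strand) encodes c-Rel, the canonical subunit most used in lymphoid cells. Its levels were 47.9, 73.3 and 55.5 CPM in lines 1, 2 and 3, a mean of 58.91 ± 13.01 (SD, n = 3). Line 2 stood apart on the high side, and every pair of lines differed in the exact binomial test. Line 2 exceeded line 1 by 1.53-fold (95% interval 1.41 to 1.66, adjusted p = 1.21e-24), and line 3 exceeded line 1 by 1.16-fold (1.07 to 1.26, adjusted p = 0.000849).

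Nfkb1 (chr3:135584655-135691547, minus strand) encodes p105, which is processed to the DNA-binding subunit p50 and in its full form also acts as an inhibitor. It was the steadiest member, at 201, 209.5 and 210.0 CPM in lines 1, 2 and 3. The lines did not pass the chi-square test (adjusted p = 0.0888), and the ratio of line 3 to line 1 was 1.05 (exact binomial 95% interval 1.00 to 1.09). Its range between lines was 0.063 on the log2 scale, against a median of 0.29 over genes of at least 5 CPM.

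The non-canonical subunits were highest in line 3. Relb (chr7:19606217-19629438, minus strand) had 174, 161 and 409 counts, which gave 8.02, 8.16 and 16.1 CPM. Lines 1 and 2 were level (ratio 1.02, 95% interval 0.816 to 1.27), and line 3 was higher than both, 2.00-fold over line 1 (1.67 to 2.41, adjusted p = 1.12e-14, exact binomial) and 1.97-fold over line 2 (1.64 to 2.38). The difference rests on line 3, and without it the adjusted p was 0.928.

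Nfkb2 (chr19:46304320-46312385, plus strand), which encodes p100, the precursor of p52 and the partner of RELB, measured 15.0, 18.4 and 25.9 CPM in lines 1, 2 and 3. The 3 lines were distinct from each other, with line 3 above line 1 by 1.73-fold (exact binomial 95% interval 1.51 to 1.98, adjusted p = 1.06e-15) and above line 2 by 1.41-fold (1.23 to 1.60). Its exons share 299 bases with Psd and 531 with the long non-coding RNA gene AC114539.1, both on the opposite strand, and the strand setting of the counting is not given in the sources used here. Psd had 7 to 9 counts per line against 326 to 660 for Nfkb2, and AC114539.1 has no row among the genes analysed here, so its reads could not be told from those of Nfkb2.

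The 3 cytoplasmic inhibitors all differed between lines, each in its own order. Nfkbia (chr12:55489410-55492647, minus strand), which encodes IkBα, the fast inhibitor that NF-kB itself induces, measured 25.4, 36.5 and 22.2 CPM in lines 1, 2 and 3. Line 2 was high, as for Rel, and line 3 low. The ratio of line 3 to line 2 was 0.608 (95% interval 0.544 to 0.680, adjusted p = 6.08e-18, exact binomial), and line 3 was also below line 1 (0.872, interval 0.774 to 0.983, adjusted p = 0.0441).

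Nfkbib (chr7:28758251-28767512, minus strand), which encodes IkBβ, went the other way, with levels of 38.5, 35.0 and 54.0 CPM. Line 3 was 1.54-fold above line 2 (95% interval 1.41 to 1.69, adjusted p = 2.45e-20, exact binomial), and lines 1 and 2 were not told apart (ratio 0.909, interval 0.821 to 1.01). Without line 3 the chi-square test gave an adjusted p of 0.105. Nfkbib shares 42 exon bases with Sirt2 on the opposite strand, which had 858, 723 and 1105 counts against 836, 691 and 1376 for Nfkbib, so reads of this short stretch may belong to either gene.

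Nfkbie (chr17:45555703-45563169, plus strand), the gene of IkBε, measured 14.4, 19.3 and 18.4 CPM. Line 1 was the low line here, with line 2 above it by 1.34-fold (95% interval 1.15 to 1.56, adjusted p = 0.000512, exact binomial), and lines 2 and 3 were not told apart (ratio 0.956, interval 0.834 to 1.10). Without line 1 the adjusted p of the chi-square test was 0.610.

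Tnfaip3 (chr10:19000910-19015657, minus strand) encodes A20, a ubiquitin-editing enzyme that ends NF-kB signalling. It had 131, 113 and 170 counts, or 6.04, 5.73 and 6.68 CPM, a mean of 6.15 ± 0.484 (SD, n = 3). No pair of lines passed the exact binomial test, and the widest ratio, line 3 over line 2, was 1.17 (95% interval 0.914 to 1.49). Ratios within that interval are not excluded at this depth.

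Bcl3 (chr7:19808462-19822770, minus strand), whose product binds p50 and p52 dimers in the nucleus, was close to absent from lines 1 and 2, with 0 and 1 counts, and had 17 counts in line 3. Line 3 stood at 0.668 CPM. Set against the limit of 3 counts per library that the 0 of line 1 allows, it was 4.83-fold higher, with the counting error of line 3 left out. With the counting error of both lines, the exact 95% lower limit of the ratio to line 1 was 3.52. Against line 2 the ratio was 13.2 (95% interval 2.06 to 551, adjusted p = 0.00157, exact binomial). Its call rests on line 3 alone, since without that line too few counts were left for the gene to be tested. Myeloid marker genes summed to 1.75, 2.08 and 4.04 CPM in lines 1, 2 and 3, mostly from Lyz2, and their part in the Bcl3 difference was not tested.

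Between genes, levels can be compared per length only. Per kilobase of the union of all annotated exons, Rela was highest at 23.1 ± 2.23 CPM per kb (SD, n = 3), followed by Nfkbib at 19.6 ± 4.67, Nfkbia at 17.4 ± 4.65 and Nfkb1 at 17.1 ± 0.422. The ranges of neighbours among these 4 overlapped, so their order is not settled by the 3 lines. Rel followed at 7.89 ± 1.74, Nfkbie at 5.70 ± 0.856, Nfkb2 at 4.32 ± 1.22 and Relb at 2.77 ± 1.18. The steps from Nfkb1 to Rel and from Rel to Nfkbie did not overlap, while the lines of Nfkbie overlapped with those of Nfkb2, and those of Nfkb2 with Relb. Tnfaip3 at 0.851 ± 0.0670 and Bcl3 at 0.0967 ± 0.150 closed the order, each below the lowest line of the gene before it.

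The place of Nfkb1 in this order depended on the length used. Its exon union spans 12061 bases, its transcript with the longest coding sequence 4117. With the latter, Nfkb1 stood at 50.2 ± 1.24 CPM per kb (SD, n = 3), above Rela at 26.2 ± 2.52 with no overlap of the lines, and the order of the other 9 genes was the same as before. The lines of Rel and Nfkbie, apart by the exon union, overlapped with this length.

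**Figure D2:**
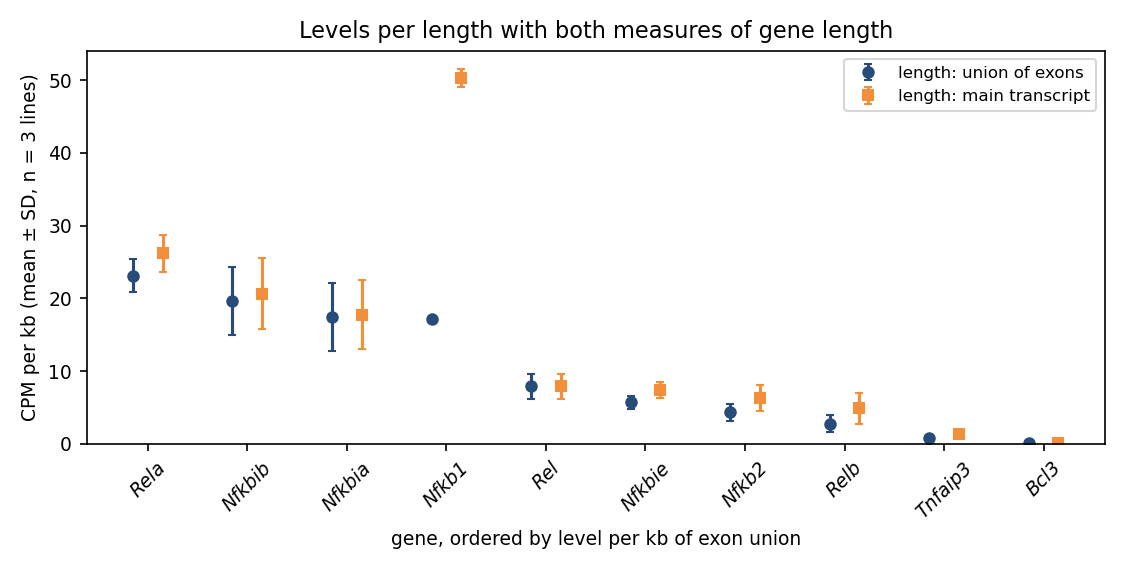
Level of each gene in CPM per kb (mean ± SD, n = 3 lines), with gene length taken as the union of all exons (circles) or as the transcript with the longest coding sequence (squares). Nfkb1 moves from 17.1 to 50.2 CPM per kb with the second length, and the order of the other 9 genes is the same with either length.

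By the exon union, Rela made up 43.1, 43.5 and 39.1% of the summed subunit level in lines 1, 2 and 3, and Nfkb1 33.4, 29.4 and 30.6%. Rel took 12.9, 16.6 and 13.1%. The non-canonical pair was the smaller part in every line, Nfkb2 with 6.56, 6.82 and 9.94% and Relb with 4.13, 3.56 and 7.27%. Set as a ratio, Relb plus Nfkb2 over Rela, Rel and Nfkb1 was 0.120, 0.116 and 0.208. Line 3 thus held relatively more non-canonical subunit RNA, and lines 1 and 2 were nearly the same.

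The summed inhibitor level over the summed subunit level varied least of these quantities, at 0.767, 0.765 and 0.787 in lines 1, 2 and 3 (0.773 ± 0.0120, SD, n = 3). Its makeup varied more. Nfkbia gave 41.3, 50.2 and 30.8% of the inhibitor level, and Nfkbib 46.4, 35.8 and 55.7%. Nfkbia was thus the leading inhibitor in line 2 and Nfkbib in lines 1 and 3. Nfkbie stayed between 12.3 and 14.0%. With the main transcript length the ratio of inhibitors to subunits was 0.479, since the Nfkb1 share rose to 52.7%.

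**Figure D3:**
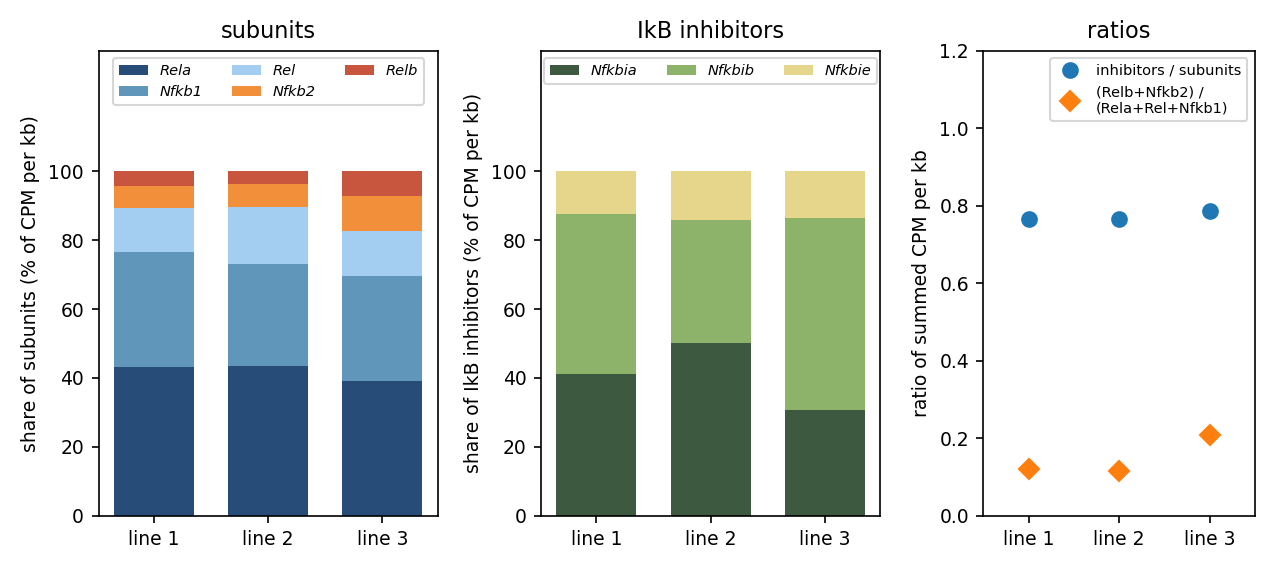
Share of each subunit (left) and each IkB inhibitor (middle) in the summed level per kb of exon union in each line, in percent, and the ratios of summed levels (right). The ratio of inhibitors to subunits lies between 0.765 and 0.787, while the Nfkbia share runs from 30.8% in line 3 to 50.2% in line 2 and the ratio of Relb plus Nfkb2 to the other subunits is 0.208 in line 3.

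Lines of this kind can differ over whole chromosome stretches, so each member was set beside the other genes starting within 5 Mb. Members, pathway genes, marker genes and Cdk6 were left out of the neighbours. Relb and Bcl3, both highest in line 3, lie within 5 Mb of each other on chromosome 7, so neither counted as a neighbour of the other. For 9 members the median deviations of the neighbours spanned at most 0.16 on the log2 scale between lines. Those of Nfkbia spanned more. Its 29 neighbours on chromosome 12 had median deviations of 0.21, 0.17 and −0.38 in lines 1, 2 and 3, and 28 of the 29 were lowest in line 3, against 35.5% of 9786 genes over the genome. Nfkbia itself deviated by −0.10, 0.40 and −0.29, and after subtraction of the neighbours its range went from 0.69 to 0.54. Line 2 was still highest, at 0.23, but line 3, at 0.09, then stood above line 1, at −0.31, so that the low place of line 3 did not hold against its neighbours. For Relb, the range was 0.92 before and after subtraction. For Tnfaip3, whose lines did not pass the test, it went from 0.19 to 0.03, and for Nfkb1 from 0.063 to 0.15. The copy number of these stretches was not measured.

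**Figure D4:**
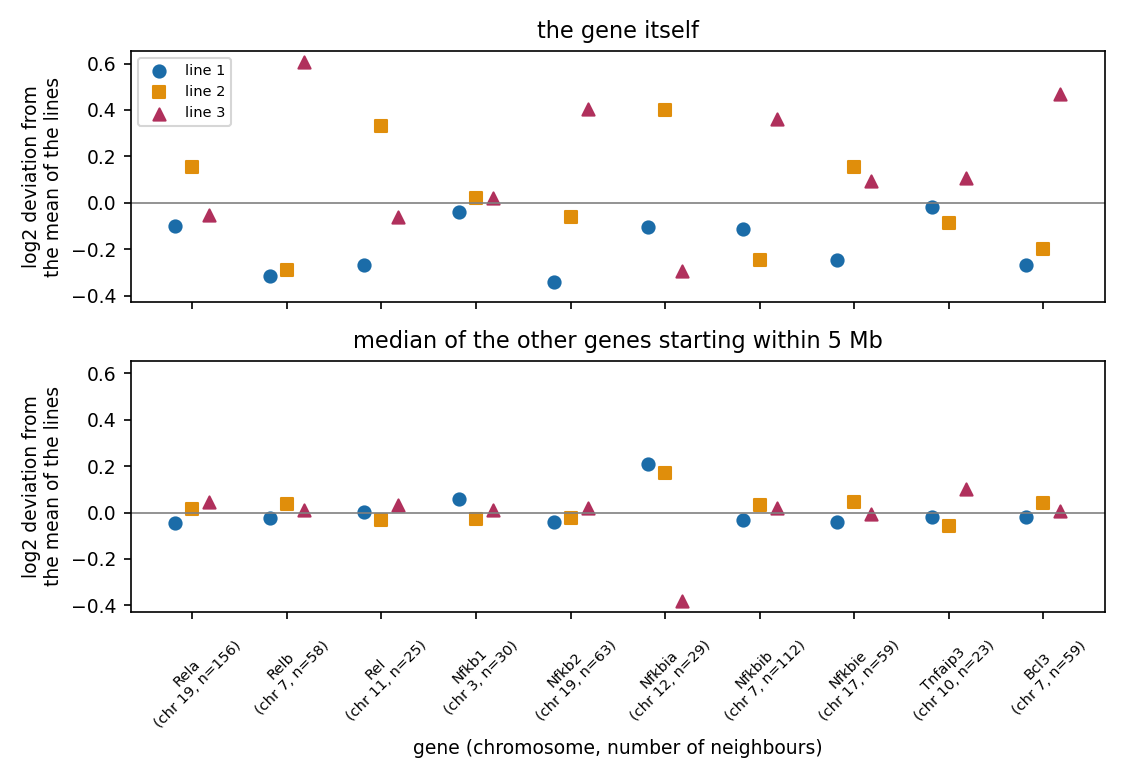
Deviation of each gene (top) and of the median of its neighbours starting within 5 Mb (bottom) from the mean of the 3 lines, in log2(CPM + 1), with the chromosome and the number of neighbours under each gene. The neighbours of Nfkbia reach −0.38 in line 3, and those of the other 9 genes span at most 0.16, which is close to the gene's own range for Tnfaip3 (0.19) and far below it for Relb (0.92).

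The other genes of the pathway were taken as 89 genes in 8 lists, of which 69 were kept. Of these 69, 50 differed between lines (72.5%, background 66.8%). The 13 of 69 that passed 2-fold stand against a background of 26.5%, or 10.4% among genes with a mean of at least 5 CPM. Some of the 13, such as Cd40 and Tlr7, lie below that level. The counts per list below are to be read against the same backgrounds. The median range of the pathway genes was 0.32 on the log2 scale, the same as over all genes kept, while that of the 10 members was 0.61. The members were named for their family, with earlier results of these data known, and the medians are given as a description. The median of the members includes Bcl3, which lies below 5 CPM.

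All 3 atypical or related IkB genes were expressed. Nfkbiz, the gene of the nuclear protein IkBζ, was highest in line 2 with 14.3, 35.5 and 14.0 CPM, 2.53-fold over line 3, and Nfkbil1, an IkB-like gene, measured 28.4, 25.9 and 32.4 CPM. Of the 10 genes of the IKK complex, its partners and NIK, 6 differed. Tbk1, an IKK-related kinase and the highest of them per length, measured 122, 118 and 147 CPM. Tab3, a ubiquitin-binding partner of the kinase TAK1, measured 26.7 and 28.4 CPM in lines 1 and 2 and 55.1 in line 3. Map3k14, the NIK gene, did not pass the test at 17.4, 18.8 and 20.1 CPM.

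Of the 12 adaptor genes kept, 8 differed. Myd88, the adaptor of Toll-like receptors, measured 66.4, 56.4 and 57.4 CPM, and Irak1, a kinase of the same route, 74.9, 91.0 and 159. Traf1, a known NF-kB target among the adaptors, had at most 2 counts in any line. Of the 8 genes of the antigen receptor route and the CBM complex, 7 differed. Plcg2, a phospholipase below the pre-B cell receptor, was highest per length at 873, 749 and 823 CPM.

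Part of these differences was shared with neighbouring genes. Tab3 and Irak1 lie on the X chromosome, and 45 of the 52 neighbours of Irak1 were also highest in line 3. After subtraction of the neighbours, the range of Irak1 went from 1.07 to 0.17 and that of Tab3 from 1.02 to 0.23, the latter with 3 neighbours only. Btk and Ikbkg, chosen after their values were seen, also lie on the X chromosome and went from 1.00 to 0.06 and from 0.76 to 0.24. Nfkbiz, on chromosome 16, kept a range of 1.23 of 1.28. Other wide genes, described below, also kept their range or gained. Ccnd1 went from 1.66 to 1.60 and Ltb from 0.98 to 1.06. Tnfrsf13c went from 0.77 to 0.83 and Rnf11 from 0.57 to 0.61. Syk, on chromosome 13 and also chosen after its values were seen, measured 145, 385 and 221 CPM in lines 1, 2 and 3. The range of Syk went from 1.40 to 0.61, and 48 of its 55 neighbours were also highest in line 2.

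Deubiquitinases and partners of A20 differed in 7 of 9 genes kept. Otulin, which cleaves linear ubiquitin chains, measured 53.9, 44.8 and 47.4 CPM, and Rnf11, a partner of A20, 26.6, 26.2 and 39.6. Tnip3 had at most 2 counts. Among the receptors, 8 of 9 genes kept differed. Tnfrsf13b (TACI) was highest per length at 214, 171 and 164 CPM, and Tnfrsf13c, the BAFF receptor, measured 48.3, 27.9 and 29.8. Tnfrsf1a, Ltbr and Il18r1 were at 0 counts in every line and Il1r1 at no more than 1, so RNA of the main TNF receptor and of the lymphotoxin β receptor was not detected at a limit of 0.118 to 0.152 CPM, while Tnfrsf1b, the other TNF receptor, measured 40.6, 69.7 and 56.8 CPM.

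The lines made RNA of several ligands. Lta (lymphotoxin α) reached 522, 404 and 418 CPM, and Ltb, its membrane partner, 24.6, 23.4 and 47.0, which is 2.01-fold between line 3 and line 2. Tnf was level at 63.9, 62.9 and 59.6 CPM and did not pass the test. Cd40lg, Tnfsf13, Il1a and Il1b were at 0, and Il18 had at most 2 counts. Of the 22 known target genes 13 were kept and 9 differed. Bcl2l1, the gene of the survival protein BCL-xL, was highest per length at 160.3, 155 and 127 CPM. Ccnd1 (cyclin D1, a partner of CDK6) measured 21.1, 17.5 and 57.5 CPM, 3.28-fold between line 3 and line 2. Of the same list 8 genes had fewer than 3 counts in every line. Ccl4, Vcam1 and Il6 were at 0, and Ccl3, Cxcl2, Cd83, Bcl2a1b and Tnfaip2 had at most 2 counts in any line. Other targets were expressed, among them Icam1, an adhesion molecule gene chosen after its values were seen, which measured 36.4, 40.5 and 39.1 CPM and did not pass the test.

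**Figure D5:**
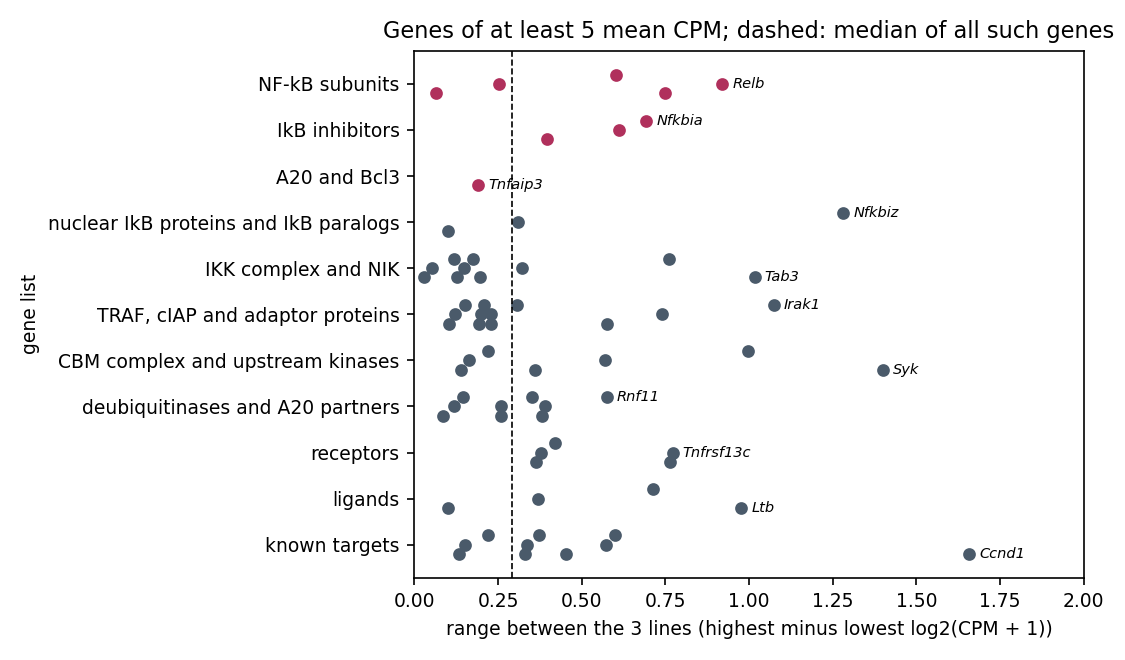
Range between the 3 lines in log2(CPM + 1) for members (red) and other pathway genes (grey) with a mean of at least 5 CPM, by list, with the widest gene drawn in each list named and 1 gene not drawn; the dashed line marks the median of all such genes, 0.29. Most IKK and adaptor genes lie left of or near the line. Relb, Nfkbiz, Tab3, Irak1, Syk, Btk, Ltb and Ccnd1 reach 0.92 or more.

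Relb had the largest range of the members. The genes with the most similar deviations over the 3 lines, outside the lists, were Kdm6a (distance 0.0135), Selenoo (0.0147) and Vps41 (0.0260). With 3 lines such a likeness is not particular to these 3 genes, and 47 of 9298 genes lay within 0.1 of Relb. Kdm6a lies on the X chromosome and Relb on chromosome 7, and the neighbours of Kdm6a were not examined.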

How the data were processed

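The deposited table holds raw counts per gene. The authors trimmed reads, merged lanes, aligned to mm10 with STAR and counted exon reads of Gencode with featureCounts. Strand setting is not given in the sources used here, and the labels and methods name different library kits. The 3 K43M columns were used, and 6 columns of samples from elsewhere were not used. Of 50686 genes, 50376 were matched to Gencode M21 of the same assembly for symbols, coordinates and lengths; 0 rows named no gene. The total counts were 21569845, 19633463 and 25773221 for lines 1, 2 and 3.

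A total of 10 counts was required of a gene, which 13974 met. edgeR 4.0.16 in R 4.3.3 gave TMM factors and exact binomial tests between pairs of libraries (2-sided), scipy 1.17.1 the chi-square test of homogeneity over the 3, each adjusted by Benjamini-Hochberg over all genes kept at 0.05. Spreads used a pseudocount of 1 CPM and understate changes of low genes. Intervals are 95% and, like limits of 3 counts, cover counting error only. The labels number the lines as replicates and the study made each line separately. No library was treated as a duplicate, because any 2 of them differed at 5994 genes at least. Neighbours had a mean log2 level of at least 2 and started within 5 Mb, and members, genes of the lists and Cdk6 were left out of them.

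The members and lists were chosen with earlier results of these data known. Named were all members, in each list the highest gene per length, the gene with the widest range among those of at least 5 CPM and those with fewer than 3 counts in every line, Cdk6, and the 3 genes most like the member of widest range. Others were chosen after their values were seen. Statistics were tested on simulated data. Other settings tried were scaling by library size or by size factors of DESeq2 1.42.0, other filters, a pseudocount of 0.1 CPM, main transcript length, windows of 2.5 and 10 Mb and leaving out each line. A gene of the lists is counted in them but not reported here.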

Additional observations from a re-analysis of the deposited data

How the results depend on the processing

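Of 319 values under an alternative, 291 kept their direction and their side of the threshold or moved by less than the spread between lines, 23 moved, 4 were weaker, 1 was stronger and 0 reversed. Part of the 291 could not change by construction. Shares and ratios within a line do not depend on the scaling of the libraries, and the tests do not use the pseudocount. The count of members that differed was 5 to 7 with 1 line left out, against 8 of 10. It was 5 without line 3, where Bcl3 had too few counts to be tested. The share of all genes that differed was 47.1 to 54.5% with 1 line left out, against 66.8%. Members past 2-fold were 1, against 2, when scaled by DESeq2, when scaled by library size, and when each line had to reach 10 counts, and 0 to 1 with 1 line left out, with 0 without line 3. Pathway genes that differed were 33 to 41 with 1 line left out, against 50. Those past 2-fold were 3 to 8, against 13, the lower value in each case without line 3. The share of all genes past 2-fold was 12.3 to 15.9% with 1 line left out, against 26.5%. Fewer lines and fewer genes enter these fits by construction. With the main transcript length the Nfkb1 share of subunits was 52.7%, against 31.1%, and the ratio of inhibitors to subunits 0.479, against 0.773. Without a filter on low counts Nfkb1 passed the test (adjusted p = 0.0349), and the cause was not tested. No paired analysis was possible because there is 1 group only. Depth limits Bcl3 and the genes near 0, where only a bound or a wide interval can be given.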

Other observations

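Several known NF-kB target genes were highest in line 2, the line in which Rel and Nfkbia were also highest. They were chosen after their values were seen and are given with no test beyond the one across all genes. Gadd45b, a stress response gene that NF-kB induces, measured 2.67, 5.78 and 1.49 CPM in lines 1, 2 and 3. Irf1, an interferon regulatory factor, measured 22.5, 34.6 and 25.0 CPM, and Zc3h12a, an RNase gene that limits inflammatory transcripts, 12.6, 16.1 and 11.5 CPM. Of the 13 target genes kept, 4 were highest in line 2, 6 in line 3 and 3 in line 1, so the list as a whole did not follow line 2. Rag1 and Rag2, which mark B-cell precursors, were also highest in line 2, with 22.4, 91.5 and 32.4 CPM and 12.4, 31.8 and 11.0 CPM, and their part in these differences was not tested.

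Line 3, in which Relb, Nfkb2 and Bcl3 were highest, also held the most RNA of the RANK receptor gene Tnfrsf11a, with 13, 16 and 129 counts, or 0.599, 0.811 and 5.07 CPM. Tnfsf11, the gene of its ligand RANKL, measured 73.7, 60.5 and 99.7 CPM. These genes were likewise chosen after their values were seen. Of the 9 receptor genes kept, 4 were highest in line 1, 2 in line 2 and 3 in line 3, so the list as a whole did not follow line 3. Tnfrsf13b and Tnfrsf13c were highest in line 1.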
